A study of Mus musculus with 6 samples.

Results

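The genes of the mitochondrial respiratory chain and of ATP synthase were followed in the 3 lobes of the mouse prostate, with and without a MYC transgene. Members were taken by symbol, as the nuclear genes named Nduf followed by A, B, C, S or V and a number, Sdha to Sdhd, Uqcr, Cox4 to Cox8 and Atp5. Of the 24908 genes in the table, 85 matched, and 81 of them averaged 1 FPKM or more across the 6 libraries (FPKM are reads scaled to transcript length and library depth), as did 12361 genes in all. These 81 comprised 38 genes of complex I, 4 of complex II, 8 of complex III, 14 of complex IV and 17 of complex V. The 4 members below that level were Cox6a2, Cox7b2, Cox8b and Cox8c, all tissue isoforms of complex IV, of which Cox8b came nearest with 1.49 FPKM in WT DLP and 0 to 0.51 FPKM elsewhere. Just above it stood Cox7a1, Ndufa4l2 and Cox4i2. Among the 81 are also 4 genes that carry such a symbol without being a subunit of the complex or with that role in doubt: Cox7a2l, Ndufa4l2, Ndufb4c and Atp5s. Ndufa4 was kept with complex I for its symbol, although its protein is now placed in complex IV.

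Bulk RNA-seq was analysed from the ventral (VP), dorsolateral (DLP) and anterior prostate (AP) of 1 wild-type mouse (WT) and 1 littermate heterozygous for the Hi-MYC transgene (MYC), a human c-MYC under the ARR2Pb promoter, which is active in prostate epithelium. Both males were of the FVB strain, were 12 weeks old and ate a purified diet, and each lobe was dissociated into a cell suspension before poly(A) RNA was taken. Each combination of genotype and lobe gave 1 library. Genotype and individual mouse therefore cannot be told apart, and values are compared between genotypes, and between lobes of 1 mouse, with no test. A test of lobes was made over both mice only.

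The respiratory chain sits in the inner mitochondrial membrane. Complex I takes electrons from NADH and complex II from succinate, complex III passes them to cytochrome c, and complex IV hands them to oxygen. Complexes I, III and IV pump protons while doing so, and complex V, the ATP synthase, uses the returning protons to make ATP. Most subunits are encoded in the nucleus, made in the cytosol and imported, whereas the catalytic core of complex IV and parts of complexes I, III and V come from the mitochondrial genome. Prostate luminal cells are known for secreting citrate, which elsewhere feeds the tricarboxylic acid cycle and thereby the chain.

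The estimated depth was lowest in WT AP, at 25.5 M mapped reads, and highest in MYC AP, at 50.2 M. Reads of Myc, which the table does not divide into mouse and human, gave 226.4, 200.6 and 230.0 FPKM in WT VP, DLP and AP, and 1696, 586.1 and 230.9 FPKM in the MYC mouse, so that the MYC AP stood level with the WT AP. The luminal keratins Krt8 and Krt18 were abundant in every library and marked the tissue as epithelial, with a summed level of 2903 and 2415 FPKM in WT and MYC VP and of 835.4 to 1142 FPKM in the other libraries. The 4 basal markers summed to 278.4 and 407.4 FPKM in the VP libraries and to 859.3 to 1337 FPKM in the others. Bulk RNA cannot tell fewer cells of a type from less RNA per cell.

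Where MYC or mitochondrial regulators could bind was looked up in the RefSeq promoters (GRCm38.p6, 250 bases before to 50 after each start), which held an entry for 66 of the 81 members. The E-box CACGTG, a palindrome that MYC binds with its partner MAX, occurred in 6 of these 66 promoters (9.09%), against 8.09% of all 27025 genes with an entry and 11.9% of the 9733 of them that were compared here. A palindrome of 10 bases bound by nuclear respiratory factor 1 (NRF1), spelled out in capitals in the windows of its 5 matches, occurred in 5 (7.58%), against 1.07% and 2.24%. The motif CCGGAAG of ETS factors, searched on both strands, occurred in 16 (24.2%), against 9.93% and 19.7%. None of the 3 motifs overlaps another by its letters, and a match is a description of the letters only. The E-box windows are shown because the transgene encodes the factor that binds them, with the E-box in capitals.
Atp5f1 (chr3:105959495-105959513, minus strand): aCACGTGgtgtacctctgc
Atp5g1 (chr11:96075658-96075687, minus strand): agggactccgaaCACGTGggtgggggagct
Atp5g3 (chr2:73911547-73911576, minus strand): acccctgcctggCACGTGcaaggagcgagg
Atp5l (chr9:44920872-44920901, minus strand): ctcaggattcttCACGTGttatcgcgcctc
Ndufa7 (chr17:33824488-33824517, plus strand): gcggagaggagtCACGTGagcaggggatgc
Ndufv1 (chr19:4012907-4012936, minus strand): agcagagggcgaCACGTGagcctggtttac

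The NRF1 windows are shown as the motif with the highest ratio of its share in the members to that in all genes, with the palindrome in capitals. It began 42 bases before the start of Atp5g2, 50 before that of Atp5k, 162 before that of Cox6a1 and 60 before that of Ndufa11, and in Uqcrc1 it lay after the start.
Atp5g2 (chr15:102671070-102671099, minus strand): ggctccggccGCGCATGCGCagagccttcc
Atp5k (chr5:108434430-108434459, minus strand): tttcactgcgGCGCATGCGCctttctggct
Cox6a1 (chr5:115349101-115349130, minus strand): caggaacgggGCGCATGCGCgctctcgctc
Ndufa11 (chr17:56717692-56717721, plus strand): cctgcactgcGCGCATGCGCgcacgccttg
Uqcrc1 (chr9:108936668-108936697, plus strand): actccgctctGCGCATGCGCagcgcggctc

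In the WT mouse, respiratory chain and ATP synthase genes were lowest in the AP. Their median level was 64.5 FPKM in the VP, 67.7 in the DLP and 45.1 in the AP, whereas the median of all genes compared lay between 7.07 and 8.07 FPKM in these libraries. WT AP held the lowest value of the 3 WT libraries for 73 of the 81 members (90.1%), against 43.5% of all genes, and the lowest of all 6 libraries for 70 (86.4%), against 29.3%. Under the 4 other scalings the first of these counts was 71 to 75, against 31.5% to 40.8% of all genes. The median log2 ratio of the members, computed on FPKM + 1, was 0.60 for DLP over AP and 0.46 for VP over AP, where all genes had medians of 0.10 and -0.01. Of the members, 79 were higher in DLP than in AP (61.6% of all genes were) and 73 higher in VP than in AP (48.8%).

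By a threshold of 1.5-fold, 41 members were higher in WT DLP than in WT AP (12.2% of all genes) and 1, Cox4i2, was lower (4.98%). The count of 41 became 13 with equal sums of FPKM and 12 with centring on genes of like length. The shares of all genes past 1.5-fold are not given for these, so the 2 counts are not read against a background. The members' medians there were 0.40 and 0.33, against -0.07 and 0 for all genes. Likewise 27 were higher in WT VP than in WT AP (17.1%), and 3, Cox4i2, Cox6b2 and Ndufa4l2, were lower (20.7%). Cox4i2 and Ndufa4l2 reached the minimum mean only through AP, so that their direction here was set by the filter. The difference ran through every complex. For DLP over AP the medians were 0.71 in complex I, 0.64 in complex II, 0.58 in complex III, 0.50 in complex IV and 0.58 in complex V. For VP over AP they were 0.51, 0.38, 0.51, 0.29 and 0.41. The accessory subunits of the membrane arm of complex I, which surround its proton pumps, showed the widest gap, with all 19 lower in AP than in both other lobes and medians of 0.76 for DLP over AP and 0.79 for VP over AP.

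Ndufa1, a small membrane-arm subunit encoded on the X chromosome (chrX:37187588-37191238), had 233.8 FPKM in WT VP and 245.5 in WT DLP but 96.1 in WT AP, where it was 2.43-fold and 2.56-fold lower. Ndufb9, another membrane-arm subunit, had 116.3, 76.97 and 45.1 FPKM in WT VP, DLP and AP. Both therefore stood far lower in AP, and Ndufb9 also differed between VP and DLP. The abundant Cox6b1 of complex IV, with 353.5, 378.8 and 228.2 FPKM, and Atp5b, the catalytic beta subunit of ATP synthase, with 241.4, 263.6 and 199.0 FPKM, were also lowest in AP, with smaller gaps.

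**Figure D1:**
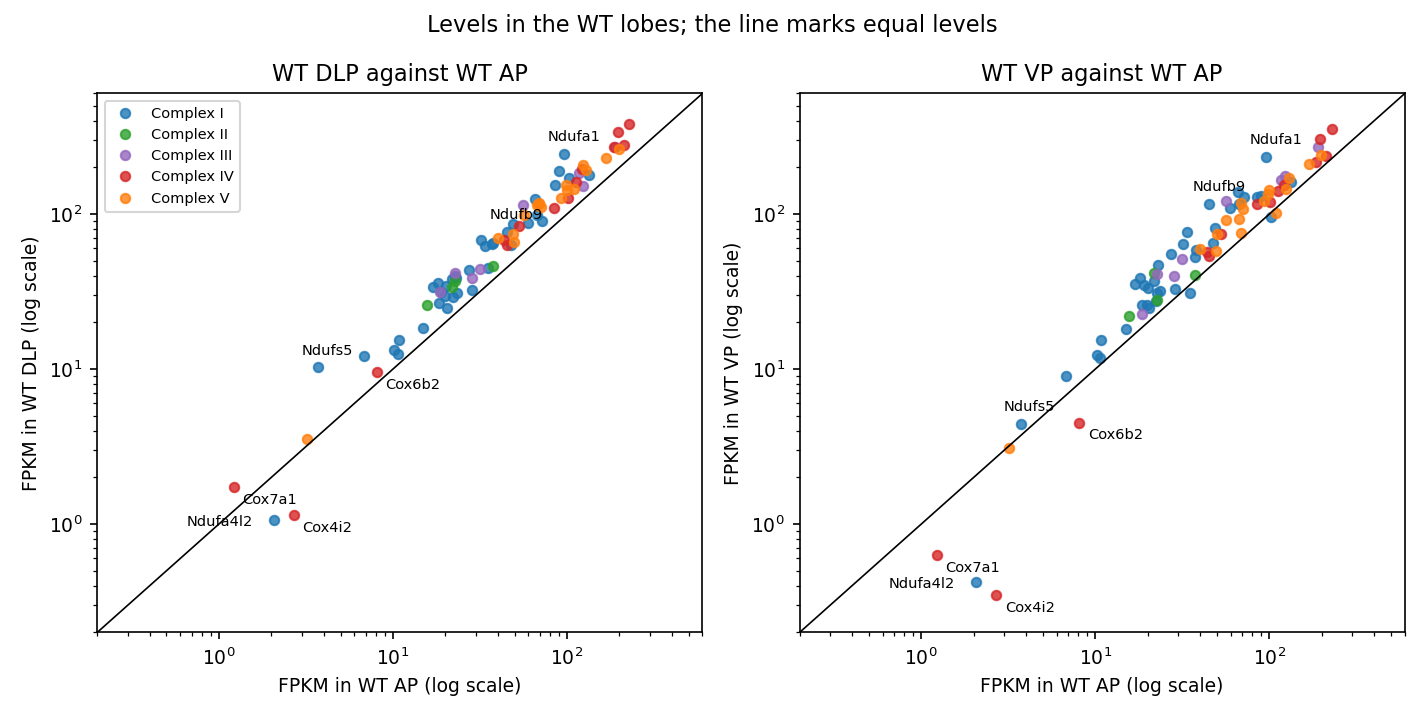
FPKM of the 81 members in WT DLP (left) and WT VP (right) against WT AP, both axes on a log scale, 1 point per gene coloured by complex, with a line at equal levels. Points lie above the line for 79 members on the left and 73 on the right, and the isoforms Cox4i2 and Ndufa4l2 lie below it in both.

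AP was the lowest lobe in the MYC mouse too. MYC AP was the lowest of its 3 lobes for 68 of 81 members (84.0%), against 39.9% of all genes. The members' median log2 ratio was 0.51 for MYC VP over MYC AP, with 71 members higher in VP (48.7% of all genes), and 0.46 for MYC DLP over MYC AP, with 74 higher in DLP (56.8%). Complex II was the exception among the complexes, with 0.079 for MYC VP over MYC AP and 0.16 for MYC DLP over MYC AP.

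Lobes were tested over both mice in 1 limma model across all 12361 genes, with the mouse, and so the genotype, as a block and Benjamini-Hochberg adjustment. In VP over AP 6 of 81 members passed an adjusted p of 0.05 upward (6.67% of all genes) and 3 downward (9.97%). Those higher in VP were Ndufb9, Ndufb5, Ndufc2 and Ndufa8, which are accessory subunits of complex I, its core subunit Ndufv2, and the Rieske protein Uqcrfs1. Ndufb9 led them with a log2 difference of 1.34 ± 0.17 (SE, limma adjusted p = 0.0216), and Uqcrfs1 differed by 0.99 ± 0.18 (limma adjusted p = 0.0323). Of those lower in VP, the isoform Cox6b2 differed by -0.78 ± 0.15 (limma adjusted p = 0.0385). The other two, Cox4i2 and Ndufa4l2, averaged 1 FPKM only through the AP libraries, where they are high, so that nothing is read from their test. The shares of members that passed were thus close to or below those of all genes, although at an unadjusted p of 0.05 39 members were higher in VP (16.7% of all genes) and 3 lower (21.1%). In DLP over AP no member passed by limma after adjustment, where 0.0243% of all genes did in each direction, and the lowest adjusted p of a member was 0.409. At an unadjusted p of 0.05 41 were higher in DLP (7.74%). The 1 that was lower (3.03%) was Cox4i2, set aside as above. Between VP and DLP none passed after adjustment (0.291% of all genes higher and 0.599% lower in VP), and 2 were higher (6.93%) and 7 lower (17.6%) at an unadjusted p of 0.05. Of these 7, Cox4i2, Ndufa4l2 and Cox7a1 are set aside too, the last as it averaged 1 FPKM only through the DLP libraries. The model has 2 residual degrees of freedom and counts as error any lobe difference that the mice do not share.

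Other quantities moved with the lobes too. WT AP was the shallowest library, whereas MYC AP was the deepest. Luminal markers were higher in VP, but DLP and AP of the WT mouse differed little in them (971.5 and 948.6 FPKM summed), and basal markers summed to 917.8 in WT DLP and 1337 in WT AP. The 5 hematopoietic markers summed to 25.5, 32.9 and 86.5 FPKM in WT VP, DLP and AP, the 4 endothelial ones to 16.5, 80.5 and 110.4, and the 5 fibroblast ones to 634.3, 1262 and 1172. Smooth muscle markers went with the members, as their 6 genes summed to 358.3, 419.1 and 233.4 FPKM and all 6 were lower in WT AP than in both other WT lobes, with medians of 0.65 for VP over AP and 0.87 for DLP over AP. In the MYC mouse they summed to 220.3, 245.1 and 372.7 and were thus highest in AP. The part of these cell types in the lower AP level was not tested. Members have short transcripts, with a median of 697.5 bases against 1903 for all genes compared, and 1536 other genes of similar length (between the members' quartiles of 551 and 1008 bases) had medians of 0.24 for DLP over AP and 0.15 for VP over AP. Centred on genes of like length, the members' medians were 0.33 and 0.30.

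WT VP and WT DLP were closer to each other. The members' median for VP over DLP was -0.10, against -0.13 for all genes, and 23 of 81 were higher in VP (36.1% of all genes). Only Ndufb9 was at least 1.5-fold higher in VP (6.93%), and 6 members were at least 1.5-fold lower (17.9%), namely Ndufs5, Cox6b2, Ndufa4, Cox7a1, Cox4i2 and Atp5e. Of these, Cox7a1 averaged 1 FPKM only through the DLP libraries and Cox4i2 only through AP, so that nothing is read from either. Ndufa4 had 95.9 FPKM in WT VP, 170.5 in WT DLP and 102.4 in WT AP, so that it peaked in the DLP, and the same peak was present in the MYC mouse with 170.6, 247.9 and 140.7 FPKM. Atp5e, the epsilon subunit of the F1 head, had 75.4, 117.6 and 68.7 FPKM in WT VP, DLP and AP. The sign of the VP to DLP median turned to 0.12 and 0.13 under scalings by the median of ratios and the trimmed mean.

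In the VP, where Myc was highest, members as a group were higher in MYC than in WT, with values that varied by complex and subunit. The median level of the 81 genes was 64.5 FPKM in WT VP against 85.2 in MYC VP, and their median log2 ratio was 0.32, against 0.04 for all genes. Of the members, 60 were above 0 (53.2% of all genes), 17 were at least 1.5-fold higher (16.7%) and 1, Ndufa1, was lower by that factor on the log2(FPKM + 1) scale (14.9%). In plain FPKM the scarce Cox7a1 and Ndufa4l2 were lower by more, but with counting intervals of the ratio of 0.046 to 2.95 and 0.18 to 1.36. Under the other scalings 44 to 52 members were above 0, where 36.5% to 47.5% of all genes were. The count of 17 of 81 is close to the share of all genes, and the count of 1 is far below it, but both depend on the scaling. Higher and lower by 1.5-fold were 9 and 2 with the median of ratios or the trimmed mean, 4 and 3 with equal sums, and 3 and 5 with sums that omit the 20 highest genes. The shares of all genes past 1.5-fold under these scalings are not given here, so these counts are not read against a background. At 2-fold 2 members were higher (6.88%) and no member was lower (5.95%).

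Among the complexes, the VP median was 0.49 in complex V, 0.41 in complex III, 0.36 in complex IV, 0.19 in complex I and -0.05 in complex II. All of these depended on the scaling. With equal sums of FPKM they were 0.25, 0.18, 0.12, -0.023 and -0.28 in that order, and 0.21, 0.14, 0.086, -0.057 and -0.31 with sums that omit the 20 highest genes, where the median of all genes was -0.15 and -0.18. Counting error was small for most members, as the 74 with a mean of at least 10 FPKM rested on an estimated 99 to 10717 reads per library.

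**Figure D2:**
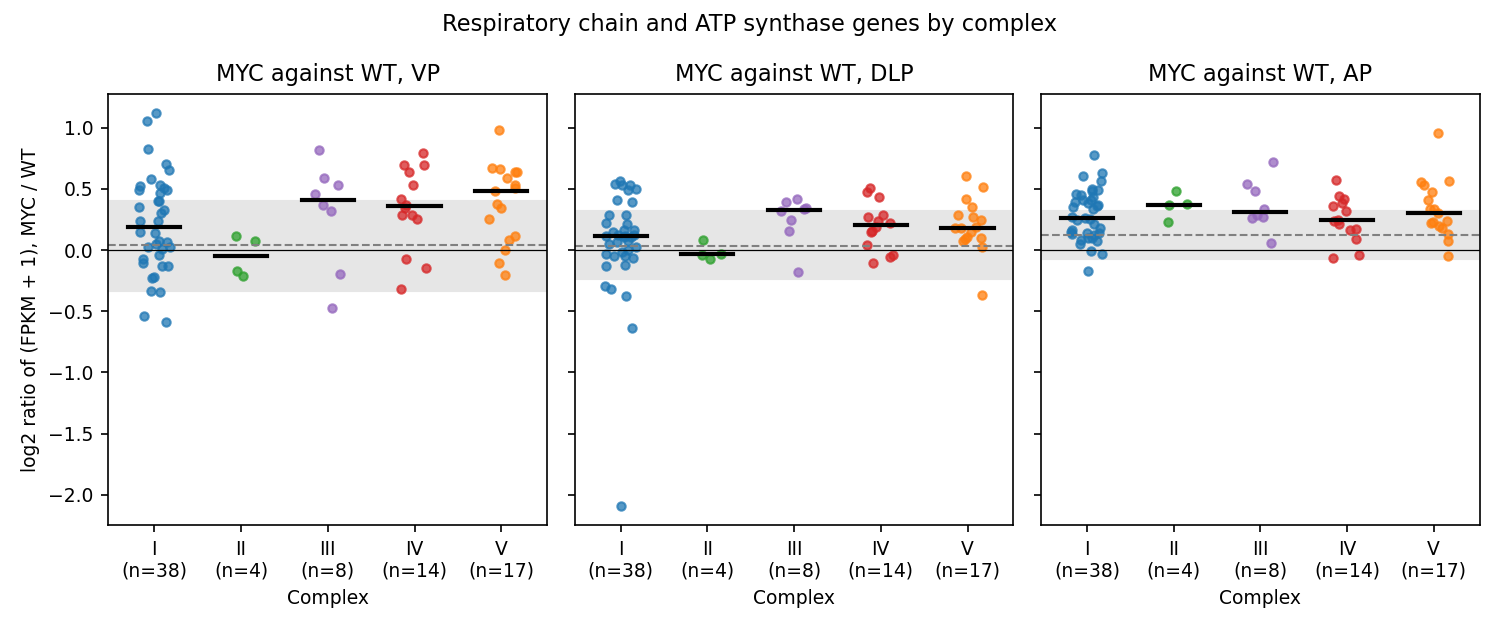
Log2 ratio of (FPKM + 1), MYC over WT, in the 3 lobes for the members of complexes I to V, 1 point per gene with black bars at the medians; the dashed line and grey band are the median and quartiles of all 12361 genes compared. In VP complexes III, IV and V have medians of 0.41, 0.36 and 0.49 while complex II lies at -0.05, and in AP all 5 medians lie between 0.24 and 0.37.

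In complex I, core and accessory subunits overlapped in the VP. All 7 core subunits measured, which carry the flavin, the iron-sulfur clusters and the quinone site, were above 0 (53.2% of all genes) with a median of 0.40. With equal sums, with and without the 20 highest genes, 6 of 7 still were, with medians of 0.18 and 0.15. Ndufs8, an iron-sulfur subunit, was 27.5 and 39.6 FPKM in WT and MYC VP, and Ndufv1, the flavin subunit, was 25.9 and 36.9 FPKM. Ndufs1, the largest iron-sulfur subunit, was among the lowest core genes with 11.8 and 15.8 FPKM.

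Accessory subunits of complex I went both ways, from the highest ratio of the complex to the lowest. The 9 of the matrix arm had a VP median of 0.048 with 6 above 0 (53.2% of all genes), and the 19 of the membrane arm 0.074 with 12 above 0. Under the other scalings 6 to 9 of these 19 were above 0, with medians of -0.20 to -0.016. These counts were close to the shares of all genes there, which were 36.5% to 47.5%. Ndufa10, a membrane-arm subunit (chr1:92439486-92473825), had the highest VP ratio of all members, with 31.9 FPKM in VP of the WT and 70.6 in that of the MYC mouse, 30.8 and 45 in DLP, and 23.4 and 30.9 in AP. MYC was above WT in each lobe, by 2.21-fold, 1.46-fold and 1.32-fold, and the VP ratio had a 95% interval of 2.08 to 2.35 (exact Clopper-Pearson method on estimated reads, covering counting error only). Ndufa9, which sits beside the quinone site, was 12.4 and 20.9 FPKM in WT and MYC VP. In contrast, Ndufv3 on the matrix arm had 138.8 FPKM in WT VP against 95.02 in MYC VP.

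Ndufa1 had the lowest VP ratio of the members with a mean of at least 10 FPKM. It had 233.8 FPKM in WT and 155.0 in MYC VP, 245.5 and 157.3 in DLP, and 96.1 and 135.8 in AP. MYC was thus below WT in VP (0.66-fold, counting interval 0.62 to 0.71) and in DLP (0.64-fold, 0.60 to 0.69) but above it in AP (1.41-fold, 1.28 to 1.56), and its 3 MYC libraries lay closer together than its 3 WT libraries. Its log2 ratio lay between -0.86 and -0.59 in VP and between -0.80 and -0.64 in DLP over all alternatives.

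Complex II, which is also an enzyme of the tricarboxylic acid cycle and has no mitochondrially encoded subunit, stayed near equal in the VP as deposited. Sdha, the flavoprotein, had 41.5 FPKM in VP of the WT and 35.6 in that of the MYC mouse, and Sdhb, the iron-sulfur subunit, 40.3 and 43.7. The membrane anchors Sdhc and Sdhd had 22.1 and 23.3, and 27.9 and 24.6 FPKM. All 4 thus differed by less than 1.2-fold as deposited, 2 in each direction. With equal sums of FPKM, with or without the highest genes, the complex II median lay further below 0, as given above.

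In complex III, 6 of 8 members were above 0 in VP (53.2% of all genes). Uqcrfs1, the Rieske iron-sulfur protein, had 41.2 FPKM in WT VP against 62.7 in MYC VP, and the core proteins Uqcrc1 and Uqcrc2 had 39.6 and 49.8, and 51.2 and 66.3 FPKM. The small subunits diverged: Uqcr11 had 166.1 and 293.4 FPKM, whereas Uqcrb, which contacts the ubiquinone pocket, had 177.0 and 127.5 FPKM. In AP the order for Uqcrb was the opposite, with 123.2 FPKM in WT and 156.2 in MYC.

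In complex IV, all 10 subunits in widespread use were higher in MYC than in WT in each of the 3 lobes (53.2%, 53.5% and 66.4% of all genes in VP, DLP and AP), with medians of 0.39 in VP, 0.26 in DLP and 0.34 in AP, and at least 8 of 10 were higher in each lobe under the other scalings (36.5% to 47.5%, 39.1% to 48.8% and 49.5% to 63.9% of all genes), with medians down to 0.12, 0.090 and 0.19. Cox4i1, the largest nuclear subunit, had 304.9 FPKM in WT and 475.3 in MYC VP, and Cox5a had 57.2 and 93.6. In DLP these values were 337.3 and 385.0 for Cox4i1 and 68.3 and 97.8 for Cox5a, and in AP 195.3 and 255.1, and 43.8 and 65.7. Direction was thus shared over the lobes as deposited, with ratios from 1.07-fold (Cox6a1 in AP) to 1.63-fold (Cox5a in VP). Cox7a2l, a factor that joins complexes III and IV into supercomplexes, was at least 1.5-fold higher in VP alone, with 154.7 and 268.8 FPKM in VP against 196.7 and 189.1 in DLP and 121.7 and 137.3 in AP.

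The tissue isoforms of complex IV were scarce, and the counting intervals of their genotype ratios included 1 in each lobe. In VP these were 0.24 to 2.53 for Cox4i2, 0.62 to 1.26 for Cox6b2 and 0.046 to 2.95 for Cox7a1. Cox4i2, the hypoxia-associated partner of Cox4i1, had 0.35, 1.14 and 2.71 FPKM in WT VP, DLP and AP, and 0.28, 0.99 and 3.29 in the MYC mouse, so that AP was highest in both mice. As it was kept only for these AP values, nothing is read from that order. It rested on an estimated 6 to 88 reads per library. Cox6b2, known from testis, had 4.52, 9.54 and 8.11 FPKM in WT VP, DLP and AP and 3.99, 9.25 and 7.87 in MYC, and was the only member below 0 in all 3 lobes, by small margins. Cox7a1, known from heart and skeletal muscle, had 0.63, 1.73 and 1.23 FPKM in the WT lobes and 0.30, 1.80 and 1.12 in the MYC lobes, against 45.3 to 74.9 FPKM for its widespread counterpart Cox7a2. As Cox7a1 was kept only through DLP, nothing is read from its order of lobes. Ndufa4l2, the hypoxia-associated relative of Ndufa4, was likewise kept only through AP, with 0.42, 1.06 and 2.07 FPKM in WT and 0.22, 2.05 and 2.37 in MYC. Endothelial markers were lowest in VP and highest in AP in both mice. As the filter set the order of Cox4i2 and Ndufa4l2, no link between them is read, and none was tested.

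Complex V had the highest VP median. Within it the F1 genes had a higher median than those of the peripheral stalk, though the values overlapped. All 5 F1 genes were above 0 in VP under every scaling (53.2% of all genes as deposited and 36.5% to 47.5% otherwise), with a median of 0.59 as deposited and of 0.35 and 0.32 with equal sums with and without the 20 highest genes. Atp5b had 241.4 FPKM in VP of the WT and 363.4 in that of the MYC mouse, Atp5a1, the alpha subunit, 142.8 and 200.4, and Atp5c1, the gamma subunit of the central shaft, 108.1 and 172.3. The 4 genes of the peripheral stalk, which holds the head still, had a median of 0.12, which ranged from -0.15 to 0.031 under the other scalings. Of these, Atp5o, which links stalk and head, had 91.9 and 143.9 FPKM, whereas Atp5j had 121.3 and 104.9, and Atp5h 211.4 and 196.8.

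The membrane ring of ATP synthase is made of subunit c, which Atp5g1, Atp5g2 and Atp5g3 encode with the same mature protein. Atp5g1 had 59.9 and 85.8 FPKM in WT and MYC VP, Atp5g2 171.7 and 272.0, and Atp5g3 134.9 and 142.5, so that Atp5g2 was the most abundant and Atp5g3 differed least. Atp5mpl, a small membrane subunit, had the highest ratio of complex V, with 57.8 and 114.9 FPKM in VP, 74.2 and 113.8 in DLP, and 49.2 and 68.9 in AP. It was 1.99-fold higher in MYC VP (counting interval 1.77 to 2.24) and 1.53-fold higher in MYC DLP, where it was the 1 member past 1.5-fold on FPKM + 1. In plain FPKM the scarce Ndufa4l2 was 1.93-fold higher there (counting interval 1.25 to 3.00).

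**Figure D3:**
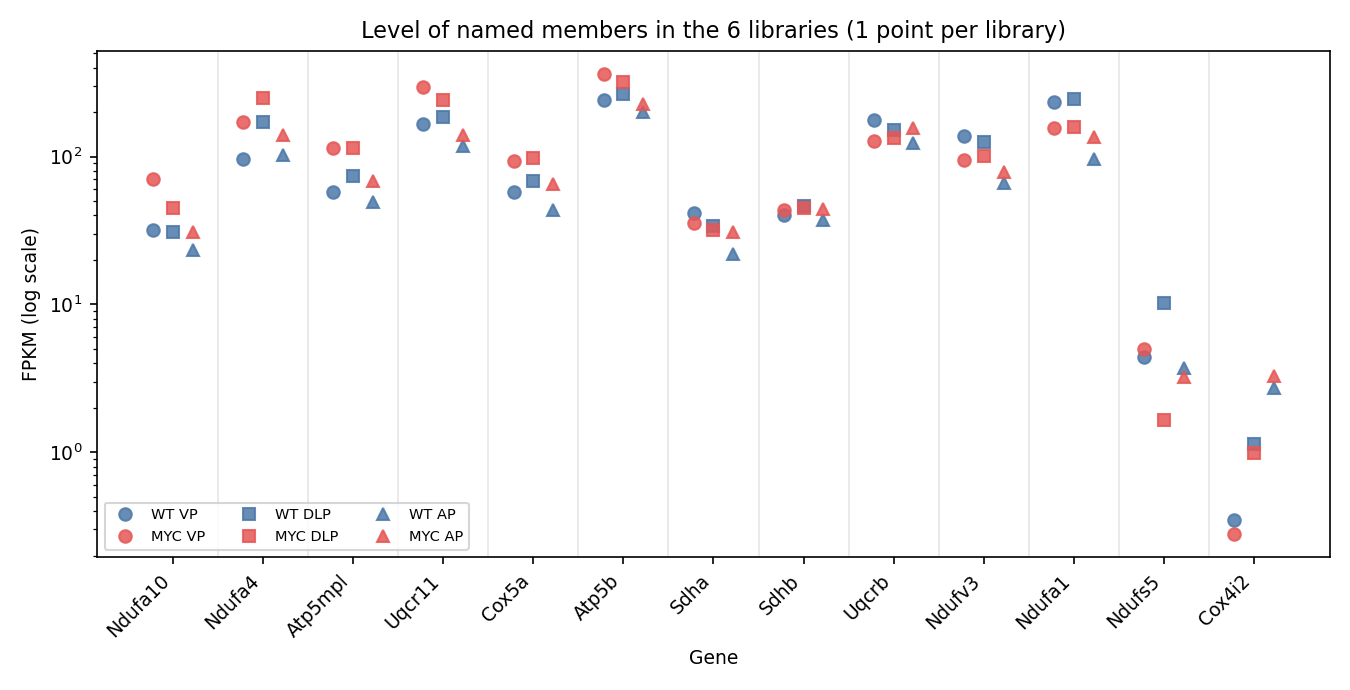
FPKM (log scale) of 13 members in the 6 libraries, 1 point per library, with WT in blue and MYC in red and the lobes by symbol. Ndufa10 is over 2-fold higher in MYC VP, Ndufa1 is lower in MYC VP and DLP but higher in MYC AP, and Ndufs5 is lowest in MYC DLP at 1.65 FPKM.

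In the DLP the members differed less between genotypes as deposited. Their median level was 67.7 FPKM in WT and 74.9 in MYC, and the median log2 ratio was 0.15, against 0.03 for all genes. Above 0 were 61 of 81 members (53.5% of all genes), yet 1 was at least 1.5-fold higher (13.4%) and 2, Ndufs5 and Ndufa1, at least 1.5-fold lower (9.44%). None reached 2-fold higher (6.46%) and Ndufs5 was 2-fold lower (3.39%). The complex medians were 0.33 in complex III, 0.20 in complex IV, 0.18 in complex V, 0.11 in complex I and -0.03 in complex II. Centred on genes of like length the median of all members was 0.034, with 45 above 0 (49.9% of all genes). Under equal sums without the 20 highest genes it was -0.015, with 38 above 0 (39.1%). With equal sums of all genes the members' median was 0.098 in DLP and 0.093 in VP.

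Ndufs5, a membrane-arm subunit (chr4:123712710-123718186), had 10.3 FPKM in WT DLP and 1.65 in MYC DLP, against 4.43 and 4.98 in VP and 3.73 and 3.21 in AP. These values rest on an estimated 164 and 19 reads in the DLP, and WT DLP and MYC DLP were the highest and the lowest of its 6 libraries. RefSeq lists a pseudogene of Ndufs5, so that the assignment of its reads is uncertain. Its level was the lowest of the complex I subunits, and it was the only member with a log2 ratio of genotypes beyond 1 outside the VP.

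Across the 81 members, the log2 ratios in VP and DLP had a Pearson r of 0.44, those in DLP and AP 0.41 and those in VP and AP 0.05, where all genes had 0.52, 0.32 and 0.10. These are descriptions over genes, which are not independent replicates and share the same pair of mice. Above 0 in all 3 lobes were 45 members (55.6%), against 29.9% of all genes. This count and those that follow are as deposited. With equal sums without the 20 highest genes 38 members were above 0 in DLP (39.1% of all genes), so that at most 38 could be in all 3 lobes. Below 0 in VP were 21 members (25.9%), against 46.4% of all genes. Below 0 in DLP as well were 8 (9.88%, against 32.0%), namely Cox4i2, Cox6b2, Ndufa1, Ndufb10, Ndufb7, Ndufv3, Sdha and Uqcrb, and all of these but Cox6b2 were above 0 in AP (8.64%, against 18.2%).

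**Figure D4:**
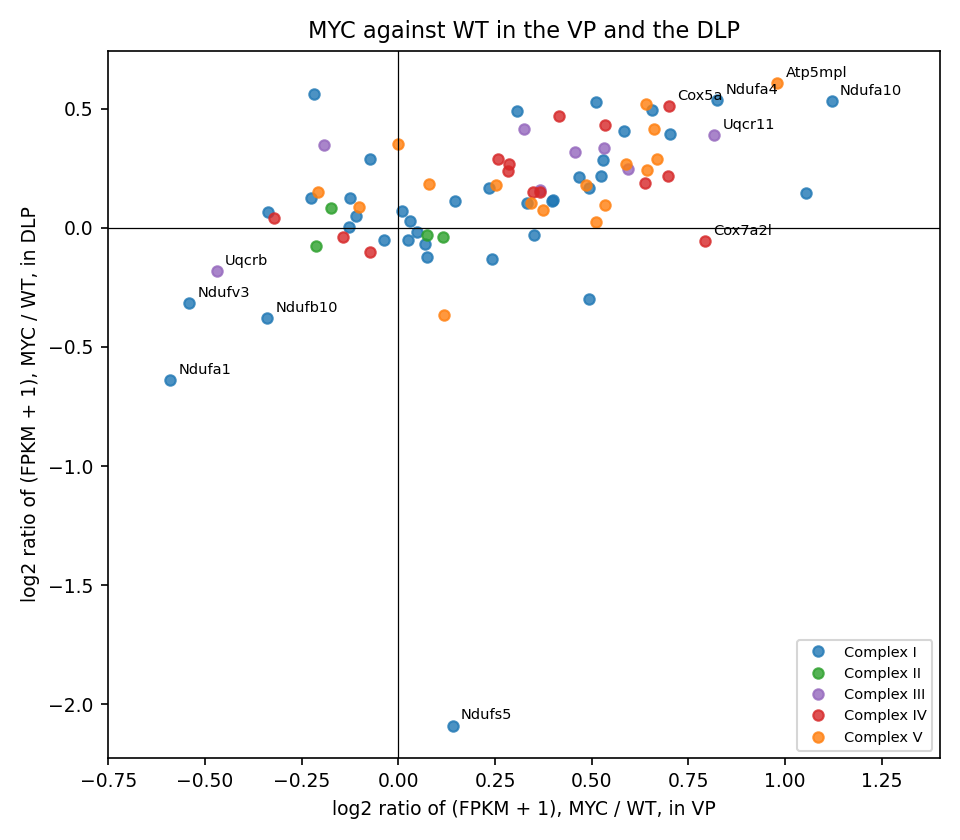
Log2 ratio of (FPKM + 1), MYC over WT, in DLP against that in VP for the 81 members, 1 point per gene coloured by complex. Most points lie in the upper right, Ndufa1, Ndufv3, Ndufb10 and Uqcrb lie below 0 on both axes, and Ndufs5 stands apart at -2.09 in DLP.

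In the AP, where Myc did not differ between the mice, nearly all members were slightly higher in MYC than in WT. The median level was 45.1 FPKM in WT AP and 62.9 in MYC AP, and the median log2 ratio 0.29, against 0.13 for all genes. Above 0 were 75 of 81 members (66.4% of all genes), 5 were at least 1.5-fold higher (7.53%) and none was lower by that much (3.13%). No member was 2-fold higher (2.05%) or 2-fold lower (0.599%). The complexes were alike, with medians of 0.27, 0.37, 0.31, 0.24 and 0.30 from I to V, and scaling by the median of ratios took the median of all members to 0.14, with 62 above 0, and that of all genes to -0.0015.

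The 5 members at least 1.5-fold higher in MYC AP were Atp5k, Ndufc2, Uqcr10, Ndufb5 and Ndufb9. With the median of ratios, the trimmed mean or length centring only Atp5k and Ndufc2 stayed past that threshold. Atp5k, the small subunit e of ATP synthase, had 68.7 FPKM in WT AP and 134.4 in MYC AP, but 118.3 and 118.2 in VP. Uqcr10 of complex III had 56.1 and 93.2 FPKM in AP but 122.3 and 106.8 in VP. For both, WT AP was the lowest of the 6 libraries. Even so, MYC AP remained below WT DLP for 70 of the 81 members (86.4%), against 49.6% of all genes. The 5 seminal vesicle genes examined, which mark a neighbouring gland, were listed at 0 in WT AP and summed to 513.3 FPKM in MYC AP, and smooth muscle markers summed to 233.4 and 372.7 FPKM. Basal markers summed to 1337 and 859.3 FPKM in WT and MYC AP, with Krt14 at 760.5 and 333.1 but Trp63 at 5.79 and 19.2. Of the fibroblast markers, which summed to 1172 and 1252, Col1a1 had 13.8 and 60.1 FPKM and Col1a2 47.2 and 126.8. Their part in the AP values was not tested.

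In VP and DLP, markers of other cells also moved with genotype. Hematopoietic markers summed to 25.5 and 155.5 FPKM in WT and MYC VP and to 32.9 and 208.1 in DLP. At least 1.5-fold higher were 4 of 5 of them in VP (16.7% of all genes) and 5 of 5 in DLP (13.4%). Fibroblast markers summed to 634.3 and 185.1 FPKM in VP and to 1262 and 604.5 in DLP. In VP 3 of 5 were at least 1.5-fold lower (14.9% of all genes), with a median of -1.72. Dcn made up most of these sums, and in DLP 2 of 5 were at least 1.5-fold lower (9.44%) and 2 higher (13.4%), with a median of -0.07. The 2 higher ones were the collagens Col1a1 (10.6 and 44.8 FPKM) and Col1a2 (40.6 and 70.5). Smooth muscle markers summed to 358.3 and 220.3 in VP and to 419.1 and 245.1 in DLP. Basal markers summed to 407.4 and 278.4 in VP and to 917.8 and 1286 in DLP. In VP 3 of 4 were at least 1.5-fold lower (14.9% of all genes, median -0.59), and in DLP all 4 were above 0 (53.5%, median 0.79). Luminal markers summed to 2903 and 2415 in VP and to 971.5 and 1142 in DLP. The part of these shifts in the members' ratios was not tested. The 1536 genes of like length had medians of 0.17 in VP, 0.12 in DLP and 0.13 in AP, and centring on length left members' medians of 0.16 and 0.12 in VP and AP.

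**Figure D5:**
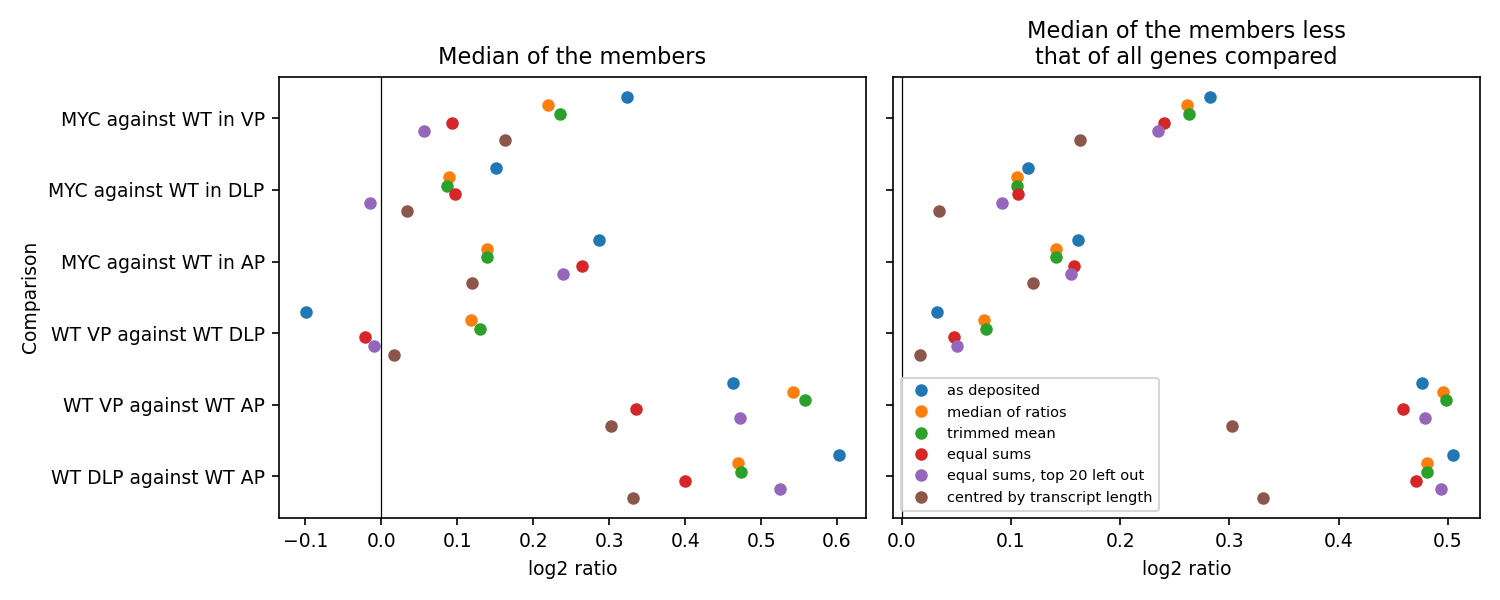
Median log2 ratio of the members (left) and the same less the median of all genes compared (right) in the 6 comparisons, 1 point per scaling of the libraries or per length centring. The DLP comparison of genotypes and the comparison of WT VP with WT DLP cross 0 on the left, and every point on the right lies above 0.

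Genes that serve the chain but fall outside the symbol rule were examined in lists. The subunits encoded by the mitochondrial genome were not analysed here. Of subunits and partners with other names, Cyc1, Cycs, Ndufab1, Usmg5 and Atpif1, all 5 were above 0 in all 3 lobes, against 29.9% of all genes (3 of 5 in AP with median-of-ratios or trimmed-mean scaling, against 49.5% of all genes), with medians of 0.83 in VP, 0.26 in DLP and 0.27 in AP. Atpif1, the inhibitor of ATP hydrolysis by complex V, had 34.0 and 70.2 FPKM in WT and MYC VP, 41.5 and 70.3 in DLP, and 39.9 and 52.5 in AP. MYC was thus above WT in each lobe, and Atpif1 was lowest in VP in the WT mouse and in AP in the MYC mouse. Cyc1, the cytochrome of complex III, had 29.9 and 45.3 FPKM in VP, and Cycs, cytochrome c itself, 19.2 and 25.9.

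The assembly factors insert cofactors and join subunits. Of 45 compared, 31 were above 0 in VP (53.2% of all genes), 5 were past 1.5-fold upward (16.7%) and 3 downward (14.9%), and the median was 0.15. In DLP 22 were above 0 (53.5%) with a median of -0.01, and in AP 33 (66.4%) with a median of 0.14. Lrpprc, which stabilises mitochondrial mRNAs, had 3.53 and 12.2 FPKM in WT and MYC VP, and Sco2, a copper chaperone of complex IV, 4.73 and 12.1. In contrast, the complex IV factors Coa4, Cox20 and Pet117 were lower, with 21.1 and 8.34, 51.8 and 27.6, and 7.61 and 4.15 FPKM. Coa3 was lowest in AP among the WT lobes, with 70.6, 52.3 and 22.3 FPKM in VP, DLP and AP. The choice of these names was made on their values.

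Genes of mitochondrial protein import, the TOM and TIM translocases, were mostly higher in MYC VP, with 17 of 18 above 0 (53.2% of all genes), 7 at least 1.5-fold higher (16.7%) and a median of 0.52. In DLP 15 were above 0 (53.5%) with a median of 0.23, and in AP 10 (66.4%) with a median of 0.0097. The other scalings left 15 to 17 above 0 in VP (36.5% to 47.5% of all genes), 11 to 13 in DLP (39.1% to 48.8%) and 5 or 6 in AP (49.5% to 63.9%), with medians of 0.25 to 0.43, 0.067 to 0.18 and -0.13 to -0.012. Timm9, a carrier chaperone, had 6.80 and 17.6 FPKM in WT and MYC VP, and Tomm20, an import receptor, 14.2 and 29.7. The 10 regulators compared had a VP median of 0.22, against 0.04 for all genes. At least 1.5-fold higher was 1 of them (16.7% of all genes), Tfb2m of mitochondrial transcription, with 5.85 and 12.5 FPKM in WT and MYC VP. Ppargc1a, the coactivator of mitochondrial biogenesis, was highest in VP in both mice, with 5.12, 1.51 and 1.36 FPKM in WT VP, DLP and AP and 7.001, 1.64 and 1.49 in MYC. Nrf1 had 4.17, 6.80 and 7.37 FPKM in the WT lobes, the reverse of the members' order between VP and AP.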

How the data were processed

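Bulk RNA-seq of the 6 mouse libraries was used. The other data of the study were not analysed here. The authors mapped single-end 75-base reads with STAR and quantified genes with Cufflinks in the VIPER workflow, on build mm10 per the submitters' processing notes, and deposited FPKM. The methods speak of read counts and DESeq2, but the deposited values are FPKM and not whole numbers, and genotypes, with 1 library per group, were compared without a model. Lobes were also fitted over both mice (log2(FPKM + 1), limma 3.58.1 in R 4.3.3 with the mouse as block and a mean-variance trend), a test added after the data were seen. Log2(FPKM + 1) ratios were taken where the 6 libraries averaged 1 FPKM or more. This scale understates changes of low genes.

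Depth was estimated from steps of low FPKM values (under 0.3) of single-exon genes. Only 34.4% to 48.3% of these values lay within 3% of a whole read, so read numbers and the counting intervals made from them are approximate. Transcript lengths came from GENCODE M1 (mm9), coordinates and promoters from RefSeq GRCm38.p6, in which all 85 members were found. How reads shared with pseudogenes were assigned is not given in the sources used here.

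Members and lists were chosen with earlier results of these data known. Named genes were the catalytic subunits, the isoform pairs, every member 2-fold different between genotypes, and the highest and lowest ratio of each complex among members with a mean of at least 10 FPKM. Some genes that these rules name are left out of the report. Others were named after their values were seen (including Ndufv3, Ndufa9, Ndufb5, Cox6b1, Atp5o, Atp5h and genes of the other lists). Alternatives were 4 scalings (median of ratios, trimmed mean of 30%, equal sums with or without the 20 highest genes), a pseudocount of 0.1, no filter or a mean of 10 FPKM, subunits only, centring each ratio on 150 genes of like length on either side, and a 2-fold threshold. Scripts were tested on simulated libraries. Work was done in Python 3.11.15 with pandas 2.3.3 and numpy 2.4.6, and figures were drawn with matplotlib 3.10.9.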

Additional observations from a re-analysis of the deposited data

Results flagged for a closer look

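With 1 library per group, the differences between lobes in this paragraph were not tested. As deposited, the complex II genes were near equal or mixed between genotypes in VP and DLP and all 4 higher in MYC AP, so that the median log2 ratio differed by 0.42 between AP and VP and by 0.41 between AP and DLP. Ndufa1 was lower in MYC than in WT in VP and DLP and higher in AP, a difference of 1.08 between AP and VP and of 1.13 between AP and DLP on the log2 scale. Atp5k differed by 0.96 and Uqcr10 by 0.91 between AP and VP, with equal or lower values in MYC VP and higher ones in MYC AP. Atp5d, the delta subunit of the F1 head, went the other way, with 102.0 and 159.8 FPKM in WT and MYC VP and 109.3 and 105.6 in AP, a difference of -0.69.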

How the results depend on the processing

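The members' median log2 ratio of MYC over WT was positive in VP and AP under every alternative run, and so were the medians of WT VP and WT DLP over WT AP. In VP it was 0.22 with median-of-ratios scaling, 0.24 with the trimmed mean, 0.093 with equal sums, 0.056 with equal sums without the 20 highest genes, 0.29 with no filter, 0.35 with a mean of 10 FPKM and 0.16 with length centring. In AP, in that order, it was 0.14, 0.14, 0.26, 0.24, 0.27, 0.33 and 0.12, and 0.32 with subunits only. In DLP it was 0.089, 0.087, 0.098 and -0.015 with the 4 scalings in that order, 0.16 with a mean of 10 FPKM and 0.034 with length centring. For WT VP over WT DLP it was 0.12, 0.13, -0.022, -0.0098, -0.088 (mean of 10 FPKM) and 0.017 (length centring). For WT VP over WT AP it was 0.54, 0.56 and 0.34 with the first 3 scalings, 0.45 with no filter, 0.30 with length centring and 0.51 in the MYC mouse. For WT DLP over WT AP it was 0.47, 0.47, 0.40 and 0.52 with the 4 scalings, 0.62 with a pseudocount of 0.1, 0.58 with no filter, 0.63 with a mean of 10 FPKM or subunits only, 0.33 with length centring and 0.46 in the MYC mouse.

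Complex medians turned sign in complex I (VP -0.023 and -0.057 with equal sums with and without the 20 highest genes, DLP -0.051 with the latter and -0.019 with length centring) and for WT VP over WT DLP. There complex I gave 0.17, 0.18, 0.038 and 0.050 with the 4 scalings and 0.076 with length centring, complex II 0.0064 and 0.018 and complex V 0.044 and 0.056 with the first 2 scalings.

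The count of members at least 1.5-fold higher in MYC VP was 9 with median of ratios or trimmed mean, 4 and 3 with equal sums with and without the 20 highest genes, 7 with length centring and 2 at 2-fold. The lower count there was 2, 2, 3 and 5 with the 4 scalings, 3 with a pseudocount of 0.1 or length centring and 0 at 2-fold. In DLP the higher count was 0 with each scaling, length centring and 2-fold and 2 with a pseudocount of 0.1, and the lower count 1 with a mean of 10 FPKM or 2-fold. In AP the higher count was 2 with median of ratios, trimmed mean or length centring and 0 at 2-fold. For WT VP over WT DLP the higher count was 2 with each scaling and length centring and 0 at 2-fold, and the lower count 2 with a mean of 10 FPKM and 1 at 2-fold. For WT VP over WT AP it was 7 of 81 higher at 2-fold, against 975 of all 12361 genes, and 0 lower with a mean of 10 FPKM. For WT DLP over WT AP the higher count was 13 with equal sums, 12 with length centring and 5 at 2-fold (476 of all 12361 genes), and the lower count 2 with each scaling, a pseudocount of 0.1 or length centring and 0 with a mean of 10 FPKM or at 2-fold. Except where given here or above, shares of all genes are not given for these alternatives, and the counts are not read against a background.

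The cause of these changes was not tested. Of 22 named ratios of at least 1.5-fold between genotypes, 0 changed sign and 14 went below 1.5-fold in some alternative. Leaving out a library was not possible with 1 per group. With both mice and the mouse as replicate block, a fit chosen after the data were seen, the medians were 0.49 for VP over AP, 0.52 for DLP over AP and -0.036 for VP over DLP. Between genotypes no paired fit was made, as genotype and mouse are the same split. Depth limits the 7 members with a mean under 10 FPKM, which rest on an estimated 2 to 1403 reads per library.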
